A study of Mus musculus with 6 samples.

Results

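Splicing factors and heterogeneous nuclear ribonucleoproteins (hnRNPs) were compared between mouse glioma cells of 2 kinds on 6 microarrays. Members were all probe sets that the platform annotation gives 1 gene symbol starting with Hnrnp, Srsf, Snrp, Sf3a, Sf3b, U2af or Prpf, which came to 141 probe sets of 57 genes among 12393 genes in all. Each gene is represented by its brightest probe set, the one with the highest mean over the 6 arrays. By family there were 18 hnRNP genes, 9 SR protein genes, 8 genes of small nuclear ribonucleoprotein (snRNP) subunits, 9 Sf3a and Sf3b genes, 3 U2af genes and 10 Prpf genes. The annotation used current names throughout, and probe sets it gives several symbols, such as those shared by Snurf and Snrpn or those of Snrpd1, Snrpd2, Snrpa and Hnrnpa3, are outside the rule and not analysed here.

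The 4 EGFRvIII arrays came from high-grade gliomas driven by EGFRvIII, a truncated form of the EGF receptor that signals without ligand, and carry the strain label BALBc INK4a -/-. The 2 PDGF-B arrays came from high-grade gliomas driven by platelet-derived growth factor B and carry the strain label BALBc. In both groups neural progenitors of embryonic day 14 from the labelled strain had been transduced with a retrovirus that expresses the driver together with a fluorescent reporter and grafted into the brains of adult BALBc mice, and cells with the reporter were sorted out of symptomatic tumours. Driver and INK4a genotype differed together, so the effects of each cannot be told apart. The labels call the arrays of a group biological replicates, name both DsRed and EGFP as the reporter, and call the cells sorted in some fields and cultured in others.

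Pre-mRNA splicing is carried out by the spliceosome, a machine built from the snRNPs and a large number of further proteins. The snRNPs carry a ring of Sm proteins and subunits of their own. SF3a and SF3b sit on the branch point as part of the U2 snRNP, and U2AF marks the 3′ splice site. Some PRPF proteins hold the tri-snRNP together and drive its rearrangements, and others, PRPF19 among them, are not part of it. SR proteins bind exons and mostly promote the use of nearby splice sites, whereas hnRNPs coat nascent transcripts and often oppose them, so that the balance of both shapes alternative splicing. Several of these factors, SRSF1 and hnRNP A2/B1 among them, have been studied as drivers of splicing changes in glioma.

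Values are log2 intensities after RMA, the standard background correction, quantile normalization and probe summary for these arrays. A log2 fold change is the EGFRvIII mean minus the PDGF-B mean, given with its standard error (SE), and a gene changed where limma gave a Benjamini-Hochberg adjusted p under 0.05 over all 6761 genes tested. A gene was tested where it lay above the median probe set of an array in at least 2 arrays. That held for 56 of the 57 members. Snrpn, which encodes the neuronal Sm protein SmN, was the member left out. The 1 probe set with its symbol alone lay at 5.37 to 5.54 in EGFRvIII cells and 5.78 and 5.41 in PDGF-B cells. Probe sets it shares with Snurf are outside the rule, so the level of the gene is not settled here. Just inside the filter lay Sf3b4, at 6.81 to 7.11 in EGFRvIII cells and 7.44 and 7.02 in PDGF-B cells. Median probe sets lay at 6.69 to 6.83 on EGFRvIII arrays and at 6.65 on both PDGF-B arrays. Precision is limited by having 6 arrays, and since these are bulk samples, a smaller share of cells with a transcript and less of it per cell cannot be told apart.

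As a check of the labels, Cdkn2a, the INK4a locus, lay at 3.70 to 3.78 in EGFRvIII cells and at 6.83 and 6.77 in PDGF-B cells. Among cell type markers, all 7 measured oligodendrocyte progenitor genes were tested and none passed. Their mean level was 11.25 to 11.70 in EGFRvIII cells and 11.11 to 11.25 in PDGF-B cells. Single genes ran from -0.86 to 2.05, with 2 negative and 5 positive (median log2 fold change 0.08). None of 12 microglia and macrophage, 8 endothelial and 7 pericyte and fibroblast markers was bright enough to be tested. All 4 tested neuron and neuroblast markers had negative log2 fold changes (median -1.09, none passed) and 5 of 6 tested astrocyte markers positive ones (median 1.03, 1 passed). Of 4 tested mature oligodendrocyte markers 3 were positive (median 0.84, highest 3.33, none passed), and the mean level of the 7 measured was 7.02 to 8.74 in EGFRvIII cells and 6.84 to 6.92 in PDGF-B cells. Mean levels of the 8 neuron and neuroblast markers were 5.93 to 6.11 in EGFRvIII cells and 6.42 to 7.01 in PDGF-B cells. Those of the 10 astrocyte markers were 7.04 to 8.79 in EGFRvIII cells and 6.64 to 6.79 in PDGF-B cells. The 3′ minus 5′ difference of the control probe sets, a sign of RNA quality, was 1.53 to 1.71 for Gapdh in EGFRvIII cells and 1.60 and 1.42 in PDGF-B cells. For actin it was 0.01 to 0.10 in EGFRvIII cells and -0.07 and -0.13 in PDGF-B cells, without overlap. EGFRvIII replicates 1 and 2 had low Xist (3.85 and 4.46) where the other arrays had 11.71 to 12.38. The Y chromosome gene Kdm5d stood at 9.40 and 8.97 in those replicates and at 3.39 to 3.58 in the other arrays. Both PDGF-B arrays were thus of the high Xist kind, so sex overlapped in part with group. EGFRvIII replicate 2 stood apart on the second principal component of all genes. The part of cell makeup, RNA quality and sex in the values below was not tested beyond the settings named.

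Splicing factor transcripts lay mostly slightly lower in EGFRvIII cells, and 1 gene passed the test. The log2 fold change was negative for 45 of the 56 tested members, where it was negative for 43.5% of all genes tested. Its median was -0.18 over the members, with quartiles of -0.36 and -0.04, against 0.06 over all genes tested. One member changed, Srsf9, which fell, or 1.79% of members, beside 2.23% of all genes tested called at this threshold, 1.64% higher and 0.592% lower. At an unadjusted p under 0.05, limma gave 13 members lower and 3 higher, beside 9.32% and 15.7% of all genes tested. In 27 members every EGFRvIII array lay below both PDGF-B arrays, beside 14.9% of all genes tested. Every EGFRvIII array lay above both PDGF-B arrays in 5 members, beside 22.5% of all genes tested.

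Members were mostly bright genes, and positive values were less common among bright genes as a whole. Of the 56 tested members, 41 lay in the brightest 25% of genes tested, a group of 1690 genes with a median log2 fold change of -0.00, of which 50.1% were negative. Among these 41 members 30 were negative, with a median of -0.14, and 19 lay wholly below the PDGF-B arrays, beside 20.1% of the 1690 genes. Scaling moved the members' median without turning it: it was -0.30 with each array centred on its median, which takes the median of all genes tested to -0.07, and -0.18 after a further quantile normalization, which takes it to -0.00. Centring left 6 members positive in place of 11. Over the settings that left out an array, the count of positive members ran from 9 to 16, highest without EGFRvIII replicate 4. With arrays centred, 34 members lay wholly below the PDGF-B arrays, beside 23.5% of all genes tested, and 3 wholly above (Srsf5, Sf3b1 and Prpf19), beside 14.2%.

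**Figure D1:**
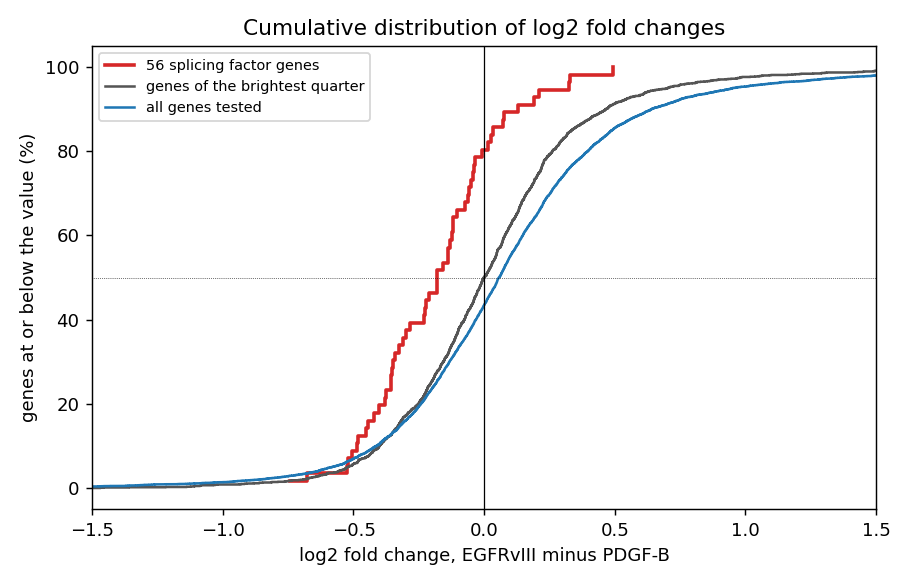
Cumulative share of genes (vertical axis, percent) at or below a log2 fold change of EGFRvIII minus PDGF-B (horizontal axis) for the 56 members (red), the 1690 genes of the brightest 25% (grey) and the 6761 genes tested (blue). The red curve lies left of both others through most of its range, with medians of -0.18, -0.00 and 0.06.

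By its brightest probe set, no member differed by more than 0.74 on the log2 scale. Among the 56 members 5 differed by more than 0.50, beside 21.5% of all genes tested and 14.5% of the brightest 25%. A difference of more than 1 was seen in none of the members, in 6.08% of all genes tested and in 3.25% of the brightest 25%. These counts do not cover a gene's other probe sets. Among those above the median in at least 2 arrays, values reached -1.30 for Hnrnph1, -1.02 for Hnrnpdl and -0.81 for Hnrnpr. The most positive was 0.49, for Srsf11. These probe sets were chosen for mention after their values were seen. The median absolute difference was 0.222 for the 41 members in the brightest 25% and 0.207 for all 1690 genes there. Within that group the median SD over EGFRvIII arrays was 0.13 for members and 0.15 for all genes, and over PDGF-B arrays 0.10 and 0.12.

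**Figure D2:**
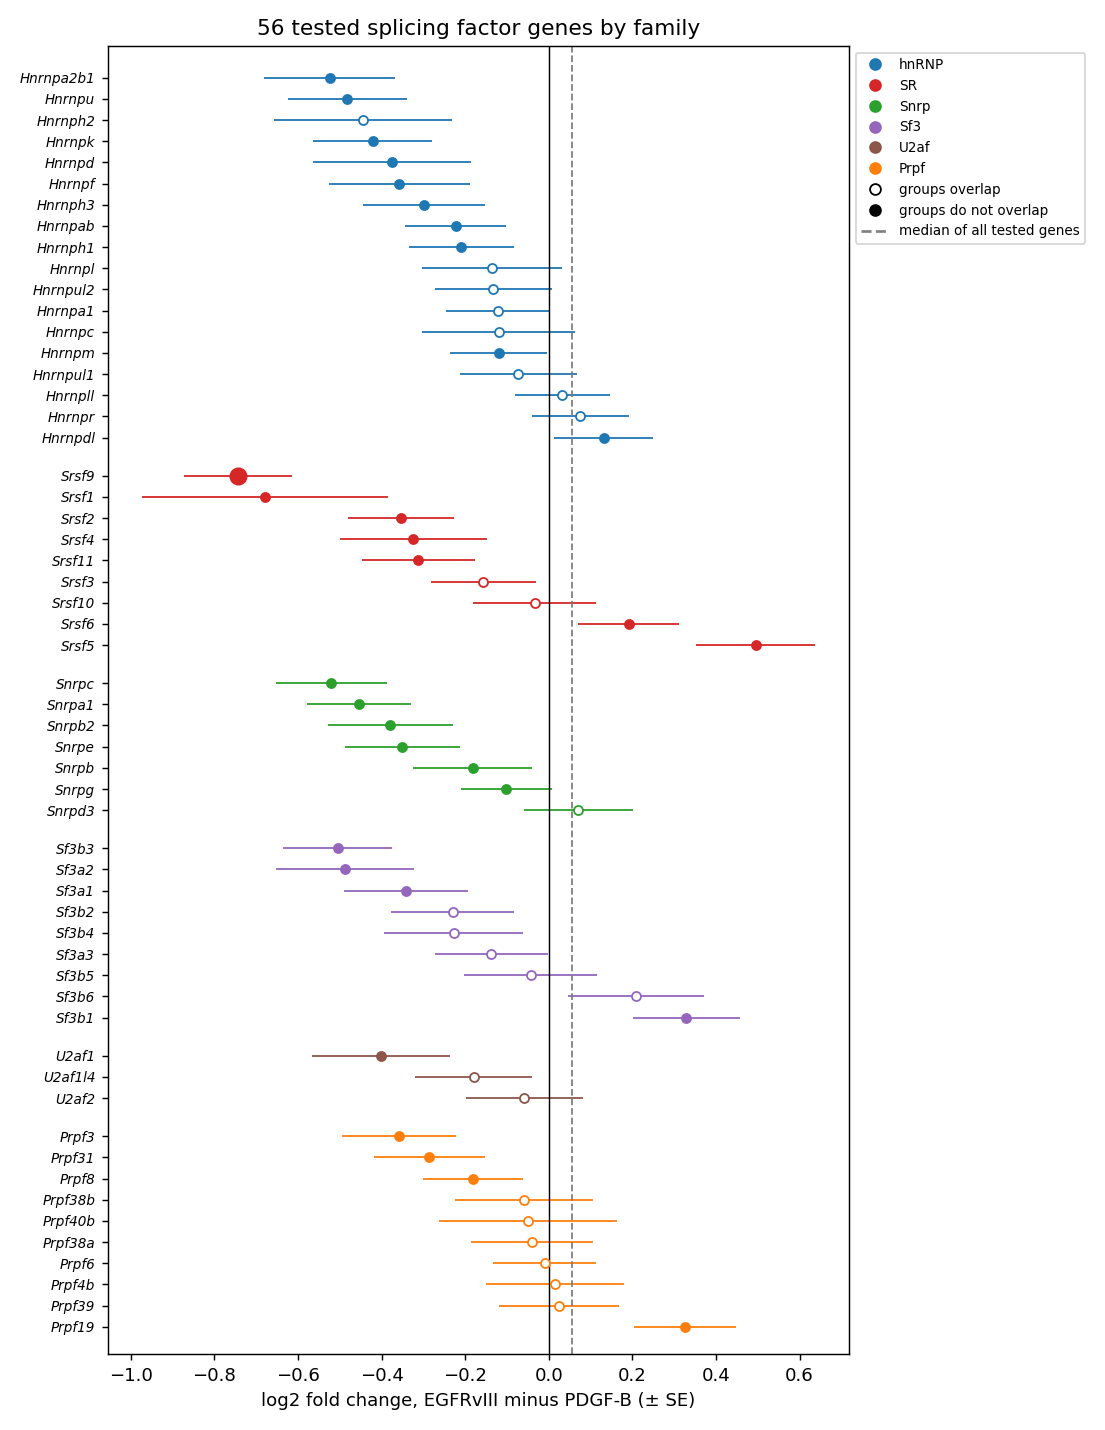
Log2 fold change of EGFRvIII minus PDGF-B (horizontal axis, bars are SE from limma) for the 56 tested members, grouped by family. Filled points are members whose groups do not overlap, the large point is Srsf9, which passed the test, and the dashed line is the median of all genes tested (0.06). Most points lie left of 0, and Srsf5, Sf3b1 and Prpf19 are the filled points farthest to the right.

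SR genes held both the most negative and the most positive log2 fold change of the set. Srsf9, an SR protein also known as SRp30c that regulates alternative splicing, stood at 10.71, 10.52, 10.70 and 10.68 in EGFRvIII cells and at 11.29 and 11.50 in PDGF-B cells. The groups did not overlap, and the distance between them was several times the spread within either. It fell by 0.74 on the log2 scale (SE 0.13; limma adjusted p = 0.0462), which is 1.68-fold lower in EGFRvIII cells, and it is measured by 1 probe set. That call sat near the threshold: leaving out any 1 of the 6 arrays ended it, with limma adjusted p from 0.0556 without EGFRvIII replicate 2 to 0.182 without PDGF-B replicate 2, although the log2 fold change stayed between -0.85 and -0.64. Fitted with Xist as a covariate it was -0.71 (limma adjusted p = 0.172).

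Srsf1, the founding SR protein and a factor with oncogenic activity when overproduced, stood at 11.73, 11.36, 10.88 and 11.97 in EGFRvIII cells and at 12.20 and 12.13 in PDGF-B cells. EGFRvIII replicate 3 was the lowest and replicate 4 came close to the PDGF-B arrays without reaching them. Its log2 fold change was -0.68 (SE 0.29; limma adjusted p = 0.212), the largest among members that did not pass, and its SD of 0.48 over the EGFRvIII arrays was the highest of the set. Its brightest probe set is of a kind that can cross-hybridize, as are those of Hnrnpf, Hnrnpa1, Sf3b2, Prpf6 and Prpf19. All 6 Srsf1 probe sets had negative values, from -0.73 to -0.20. The probe set with the least spread over the EGFRvIII arrays was the one at -0.20. It averaged 11.35 ± 0.06 in EGFRvIII cells (SD, n = 4) and 11.55 ± 0.06 in PDGF-B cells (SD, n = 2). Another, at -0.68, averaged 10.76 ± 0.11 in EGFRvIII cells (SD, n = 4) and 11.44 ± 0.10 in PDGF-B cells (SD, n = 2). Both probe sets were chosen for mention after their values were seen.

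Srsf5, an SR protein known as SRp40, ran the other way. It stood at 11.39, 11.12, 11.44 and 11.26 in EGFRvIII cells and at 10.90 and 10.71 in PDGF-B cells, so that all EGFRvIII arrays were above both PDGF-B arrays. The log2 fold change was 0.49 (SE 0.14; limma adjusted p = 0.102), from 1 probe set. Srsf6, the SR protein SRp55, also had groups that did not overlap, though not once arrays were centred, with log2 fold changes of 0.19, 0.12 and 0.35 for its 3 probe sets (limma adjusted p = 0.362 for the brightest). Srsf6 was chosen for mention after its values were seen.

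The other SR genes lay below 0. Srsf2, known as SC35 and a marker of nuclear speckles, stood at 11.63, 11.58, 11.58 and 11.82 in EGFRvIII cells and at 11.98 and 12.04 in PDGF-B cells (log2 fold change -0.35, limma adjusted p = 0.153). Srsf4 stood at 10.15, 10.11, 9.67 and 10.14 in EGFRvIII cells and at 10.43 and 10.26 in PDGF-B cells (log2 fold change -0.32, limma adjusted p = 0.297), with EGFRvIII replicate 3 again lowest and a value of -0.21 without it. Both genes kept their groups apart. Srsf11 had -0.31 (limma adjusted p = 0.212), but its other probe set had 0.49. Srsf3 and Srsf10 had -0.16 and -0.03, and neither passed.

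**Figure D3:**
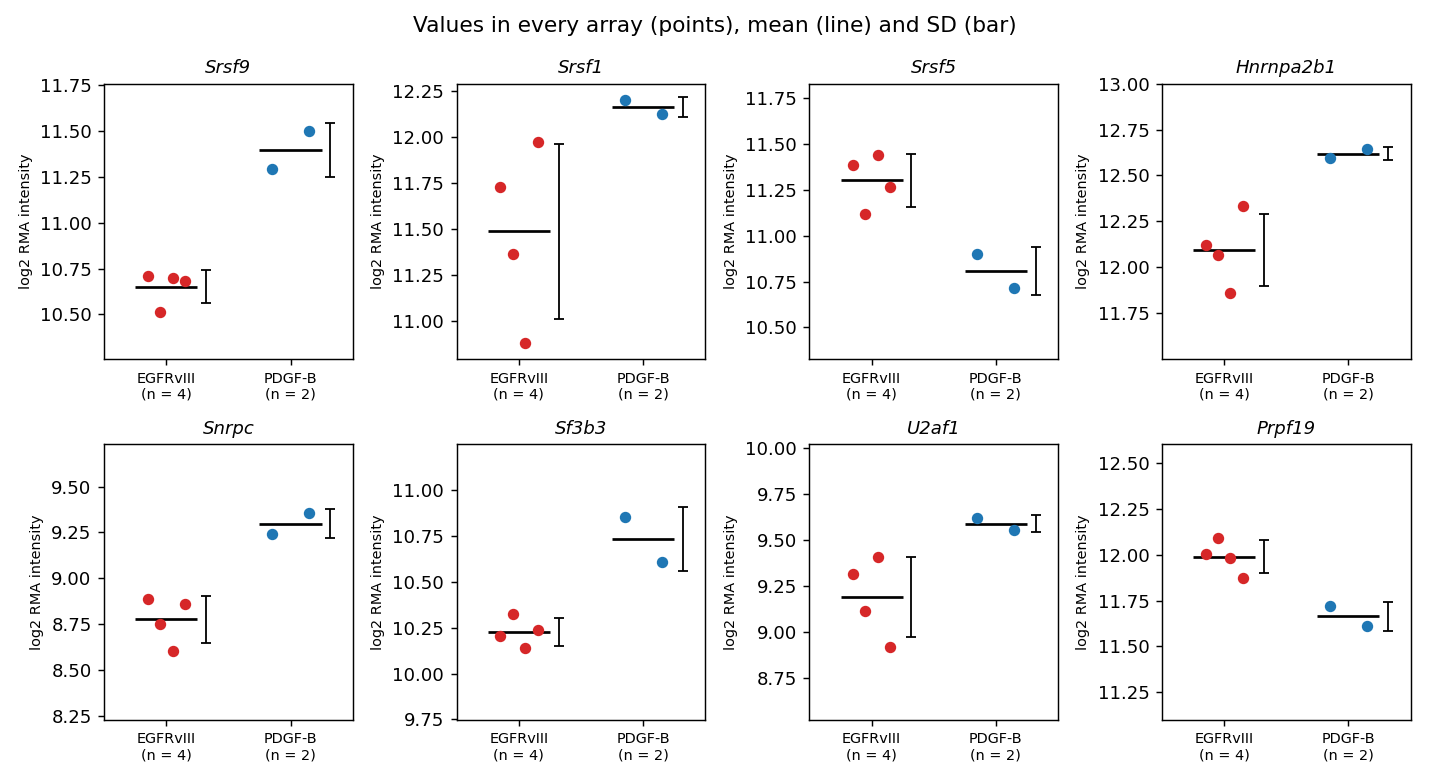
Log2 RMA intensity (vertical axes, each spanning 1.5 units) of 8 members in the 4 EGFRvIII arrays (red, left) and the 2 PDGF-B arrays (blue, right), with the group mean (line) and SD (bar). The groups do not overlap in any of the 8 panels; Srsf5 and Prpf19 are higher in EGFRvIII cells and the other 6 lower, and Srsf1 has the widest spread, from 10.88 to 11.97.

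The promoters of genes at the ends of this range are shown. Srsf9 and Srsf1 had the most negative values and Srsf5 the most positive. Hnrnpa2b1 was added as the hnRNP with the most negative value by its brightest probe set, while its other probe sets had 0.06, 0.11 and 0.11. A link between promoters and these values was not tested. Each line gives the 250 bases before the first start that RefSeq lists (GRCm38.p6), 5′ to 3′ in the gene's direction. Capitals mark motifs searched on both strands. The SP1 motif was GGGCGG and that of ETS factors was CCGGAAG. For NF-Y the letters CCAAT were searched. The E-box was searched as CACGTG. The TATA box was searched as TATAAA. In Srsf5 an SP1 and an ETS match overlap by a base and appear as 1 run of capitals.
Srsf9, chr5:115326927-115327176, plus strand: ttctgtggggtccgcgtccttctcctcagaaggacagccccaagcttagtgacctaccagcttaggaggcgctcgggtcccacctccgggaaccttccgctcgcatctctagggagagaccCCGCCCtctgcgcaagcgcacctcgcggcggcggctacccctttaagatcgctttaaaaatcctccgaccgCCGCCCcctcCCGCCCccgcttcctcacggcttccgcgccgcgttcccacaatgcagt
Srsf1, chr11:88047123-88047372, plus strand: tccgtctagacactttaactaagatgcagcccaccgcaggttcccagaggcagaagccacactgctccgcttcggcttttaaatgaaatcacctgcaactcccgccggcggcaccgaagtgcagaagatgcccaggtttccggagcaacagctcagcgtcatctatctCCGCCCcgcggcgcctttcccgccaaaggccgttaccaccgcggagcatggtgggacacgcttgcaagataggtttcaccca
Srsf5, chr12:80945249-80945498, plus strand: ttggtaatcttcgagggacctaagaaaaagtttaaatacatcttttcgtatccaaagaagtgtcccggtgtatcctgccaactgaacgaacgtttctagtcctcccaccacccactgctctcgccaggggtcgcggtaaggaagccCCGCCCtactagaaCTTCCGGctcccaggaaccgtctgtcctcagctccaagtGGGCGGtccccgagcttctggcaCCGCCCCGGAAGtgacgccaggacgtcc
Hnrnpa2b1, chr6:51469895-51470144, minus strand: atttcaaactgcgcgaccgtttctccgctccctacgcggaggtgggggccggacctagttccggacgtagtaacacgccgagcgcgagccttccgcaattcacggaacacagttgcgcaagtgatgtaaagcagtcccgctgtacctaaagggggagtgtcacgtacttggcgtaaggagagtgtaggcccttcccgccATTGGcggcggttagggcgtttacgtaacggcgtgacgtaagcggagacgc

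Srsf9 had 3 SP1 matches, Srsf1 had 1, Srsf5 had 3 together with 2 ETS matches, and Hnrnpa2b1 had 1 NF-Y match. RefSeq promoters were found for 51 of the 57 members, with a median GC content of 59.6%, near the 60.8% of the 5565 tested genes with a promoter. The ETS motif was present in 16 of 51 members (31.4%), in 16.0% of the tested genes' promoters and in 7.05% of all 27025 promoters. CCAAT was present in 49.0% of members, in 37.0% of the tested genes' promoters and in 34.5% of all promoters, and GGGCGG in 64.7%, 63.3% and 32.9%. CACGTG was in 3 and TATAAA in 4 of the 51, or 5.88% and 7.84%, against 8.73% and 5.79% of the tested genes' promoters and 6.05% and 13.0% of all. The 16 tested members with the ETS motif had a median log2 fold change of -0.32, against -0.17 for the 34 without it, and the 24 with CCAAT had -0.15, against -0.32 for the 26 without it. These are descriptions of letters in a window and say nothing of binding.

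The hnRNP genes formed the largest family, and none passed. Of 18, 15 had negative log2 fold changes, with a family median of -0.17. In 9 every EGFRvIII array lay below both PDGF-B arrays and in 1 above both, beside 14.9% and 22.5% of all genes tested. Hnrnpa2b1, which binds RNA and takes part in splicing and RNA transport, stood at 12.12, 12.07, 11.86 and 12.33 in EGFRvIII cells and at 12.59 and 12.64 in PDGF-B cells. These groups were well apart (log2 fold change -0.52, SE 0.16; limma adjusted p = 0.108). Its other 3 probe sets disagreed, with log2 fold changes of 0.06, 0.11 and 0.11, and with the mean of all 4 the value was -0.06 (limma adjusted p = 0.763).

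Hnrnpu, a scaffold protein that holds chromatin and RNA together in the nucleus, stood at 12.09, 12.29, 12.12 and 12.42 in EGFRvIII cells and at 12.78 and 12.64 in PDGF-B cells. The groups did not overlap (log2 fold change -0.48, SE 0.14; limma adjusted p = 0.108), and 4 of its 5 probe sets were negative, with a value of -0.30 for the mean of all 5. Hnrnpk, a poly(C)-binding protein, stood at 12.45, 12.22, 12.20 and 12.49 in EGFRvIII cells and at 12.83 and 12.69 in PDGF-B cells (log2 fold change -0.42, SE 0.14; limma adjusted p = 0.137). All 4 Hnrnpk probe sets were negative, from -0.46 to -0.12.

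Hnrnpf, which binds G-rich RNA, stood at 12.21, 12.03, 12.30 and 12.56 in EGFRvIII cells and at 12.67 and 12.59 in PDGF-B cells (log2 fold change -0.36, limma adjusted p = 0.24), with replicate 4 almost level with PDGF-B. Its other probe sets had -0.52, -0.06 and -0.04, and with the mean of all 4 the value was -0.24 (limma adjusted p = 0.322). The brightest and the one at -0.52 are of the kind that can cross-hybridize. Fitted with Xist as a covariate, the Hnrnpf value was -0.20 (limma adjusted p = 0.591). Hnrnpd, the AU-rich element binding protein AUF1, stood at 10.79, 10.90, 11.25 and 11.33 in EGFRvIII cells and at 11.38 and 11.51 in PDGF-B cells (log2 fold change -0.38, limma adjusted p = 0.268). In Hnrnpd, EGFRvIII replicates 1 and 2 were low and replicates 3 and 4 close to the PDGF-B arrays, and its SD over the EGFRvIII arrays was 0.26. Fitted with Xist as a covariate, its log2 fold change was -0.15 (limma adjusted p = 0.651).

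The remaining 13 hnRNP genes had log2 fold changes from -0.45 for Hnrnph2 to 0.13 for Hnrnpdl, with limma adjusted p from 0.247 to 0.88. They were Hnrnpa1, Hnrnpab, Hnrnpc, Hnrnpdl, Hnrnph1, Hnrnph2, Hnrnph3, Hnrnpl, Hnrnpll, Hnrnpm, Hnrnpr, Hnrnpul1 and Hnrnpul2. Hnrnpab, an RNA carrier protein, had all 7 of its probe sets negative, from -0.51 to -0.07, the largest such run in the set. Hnrnpr and Hnrnpdl were positive by their brightest probe set (0.08 and 0.13), while the other 2 probe sets of Hnrnpr had -0.81 and -0.46 and 4 of the other 5 of Hnrnpdl were negative, down to -1.02. Hnrnpab, Hnrnpr and Hnrnpdl were chosen for mention after their values were seen.

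Of 7 tested Snrp genes, 6 had negative log2 fold changes, beside 43.5% of all genes tested. In all 6 of them every EGFRvIII array lay below both PDGF-B arrays, beside 14.9% of all genes tested. The family median was -0.35, and -0.47 with arrays centred and -0.30 after quantile normalization, but it was -0.18 with the mean of each gene's probe sets, and no member passed. Snrpc, a U1 subunit that helps recognize the 5′ splice site, stood at 8.89, 8.75, 8.61 and 8.86 in EGFRvIII cells and at 9.24 and 9.35 in PDGF-B cells (log2 fold change -0.52, SE 0.13; limma adjusted p = 0.0802). Snrpa1, a subunit of the U2 snRNP, stood at 10.28, 10.47, 10.33 and 10.30 in EGFRvIII cells and at 10.88 and 10.71 in PDGF-B cells (log2 fold change -0.45, SE 0.12; limma adjusted p = 0.0937). In both genes the EGFRvIII arrays lay close together and below the PDGF-B arrays. The other probe sets of Snrpa1 had -0.37 and -0.06, and with the mean of all 3 the value was -0.30 (limma adjusted p = 0.168).

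Snrpb2, the U2 subunit that pairs with the Snrpa1 protein, stood at 10.01, 9.68, 9.91 and 9.65 in EGFRvIII cells and at 10.12 and 10.26 in PDGF-B cells (log2 fold change -0.38, limma adjusted p = 0.182). Its second probe set above the median had 0.05, and averaging all 3 of them gave -0.12. Snrpe, an Sm core protein, stood at 11.74, 11.71, 11.64 and 11.97 in EGFRvIII cells and at 12.13 and 12.10 in PDGF-B cells (log2 fold change -0.35, limma adjusted p = 0.177). The other Sm genes, Snrpb, Snrpg and Snrpd3, had -0.18, -0.10 and 0.07, with limma adjusted p from 0.45 to 0.767.

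Subunits of SF3a and SF3b differed among themselves. Of 9 genes, 7 had negative log2 fold changes (median -0.23) and none passed. Sf3b3, a scaffold subunit of SF3b, stood at 10.20, 10.32, 10.14 and 10.24 in EGFRvIII cells and at 10.86 and 10.61 in PDGF-B cells (log2 fold change -0.50, SE 0.13; limma adjusted p = 0.0813). Sf3a2 stood at 8.41, 8.52, 8.20 and 8.45 in EGFRvIII cells and at 9.09 and 8.68 in PDGF-B cells (log2 fold change -0.49, limma adjusted p = 0.137), and Sf3a1 had -0.34 (limma adjusted p = 0.212). In these 3 genes the groups did not overlap, although the PDGF-B arrays of Sf3a2 lay farther apart (SD 0.29) than the EGFRvIII arrays (SD 0.14). The Sf3a2 value was -0.28 without PDGF-B replicate 1 and -0.69 without PDGF-B replicate 2, and -0.30 when its probe sets were averaged.

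Sf3b1, the large SF3b subunit that clasps the branch point and is recurrently mutated in human leukaemias, lay in the other direction. It stood at 11.79, 11.78, 11.70 and 11.55 in EGFRvIII cells and at 11.44 and 11.31 in PDGF-B cells, with every EGFRvIII array higher (log2 fold change 0.33, SE 0.13; limma adjusted p = 0.177). Its other probe sets had 0.12 and -0.15, and with the mean of all 3 the value was 0.10, while centring the arrays gave 0.21. Sf3b6, the branch point contact protein p14, had 0.21 with overlapping groups (limma adjusted p = 0.45), a value that was 0.42 without PDGF-B replicate 1, 0.00 without PDGF-B replicate 2 and 0.09 with arrays centred. The remaining Sf3a3, Sf3b2, Sf3b4 and Sf3b5 had log2 fold changes from -0.23 to -0.04.

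Of the U2AF genes, U2af1, the small subunit that contacts the AG of the 3′ splice site, stood at 9.31, 9.11, 9.41 and 8.92 in EGFRvIII cells and at 9.62 and 9.56 in PDGF-B cells. The groups did not overlap (log2 fold change -0.40, SE 0.17; limma adjusted p = 0.195). U2af1l4, a relative of the small subunit, had -0.18 (limma adjusted p = 0.45; -0.09 without PDGF-B replicate 1, -0.27 without PDGF-B replicate 2 and -0.30 with arrays centred) and U2af2, the large subunit that binds the polypyrimidine tract, -0.06 (limma adjusted p = 0.822), both with overlapping groups. Each U2AF gene was measured by 1 probe set.

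The PRPF genes lay closest to 0, with a median of -0.05, and none of 10 passed. Prpf19, a ubiquitin ligase at the core of the complex that activates the spliceosome, stood at 12.003, 12.09, 11.98 and 11.88 in EGFRvIII cells and at 11.72 and 11.61 in PDGF-B cells. Every EGFRvIII array was higher (log2 fold change 0.32, SE 0.12; limma adjusted p = 0.166), its second bright probe set had 0.33, and a dim one 0.31. With arrays centred the Prpf19 value was 0.20. Prpf3 and Prpf31, both proteins of the U4/U6 snRNP, lay lower with groups apart. Prpf3 stood at 8.46, 8.46, 8.68 and 8.42 in EGFRvIII cells and at 8.97 and 8.76 in PDGF-B cells (log2 fold change -0.36, limma adjusted p = 0.172), and Prpf31 had -0.29 (limma adjusted p = 0.235) with both bright probe sets negative. Prpf8, the central scaffold of the spliceosome's catalytic core, stood at 9.56, 9.61, 9.69 and 9.48 in EGFRvIII cells and at 9.76 and 9.77 in PDGF-B cells (log2 fold change -0.18, limma adjusted p = 0.378; -0.31 with arrays centred). The remaining Prpf4b, Prpf6, Prpf38a, Prpf38b, Prpf39 and Prpf40b lay between -0.06 and 0.02.

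**Figure D4:**
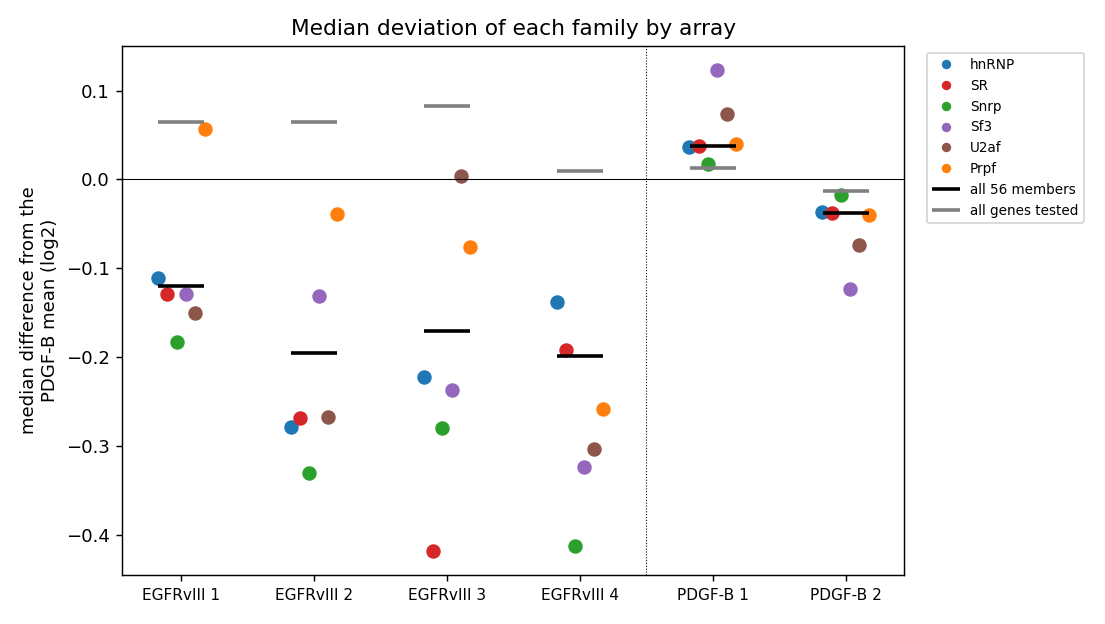
Median over the tested members of each family of the difference from the gene's PDGF-B mean (vertical axis, log2) in each of the 6 arrays (horizontal axis); black bars are the median over all 56 members and grey bars over 6761 genes. In all 4 EGFRvIII arrays the black bar lies below 0, from -0.20 to -0.12, and the grey bar above it, from 0.01 to 0.08; the PDGF-B arrays scatter around 0 by construction.

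Set against the PDGF-B mean, the members lay lower in all 4 EGFRvIII arrays rather than in 1 of them. That mean of 2 arrays is common to all 4 differences, so their agreement cannot show which group moved. The median difference of the 56 members from the PDGF-B mean was -0.12, -0.20, -0.17 and -0.20 in EGFRvIII replicates 1 to 4, against 0.07, 0.06, 0.08 and 0.01 over all genes tested. Members below the PDGF-B mean numbered 37, 42, 41 and 46 in these arrays. Families differed in which array was lowest. SR genes were lowest in replicate 3 (median -0.42), hnRNP genes in replicate 2 (-0.28), and Snrp, Sf3, U2af and Prpf genes in replicate 4 (-0.41, -0.32, -0.30 and -0.26). Without EGFRvIII replicate 2, 28 members lay wholly below and 7 wholly above the PDGF-B arrays, beside 17.8% and 25.7% of all genes tested, and without replicate 4 the members' median was -0.14.

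Probe sets of a gene often disagreed. Of the 141 probe sets 132 were above the median in at least 2 arrays, and 33 genes had more than 1 such probe set. In 15 of these 33 genes all were negative, in 5 all positive and in 13 the signs were mixed. The 76 probe sets other than the brightest had a median log2 fold change of -0.15, 52 of them negative, which is close to that of the brightest. Across these 76 the correlation with the brightest probe set of the same gene was 0.23 (Pearson, a description over probe sets that share arrays and genes). Srsf10 showed the disagreement within 1 gene: its probe sets had -0.03, -0.74, -0.32 and 0.07. Srsf10 was chosen for mention after its values were seen.

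**Figure D5:**
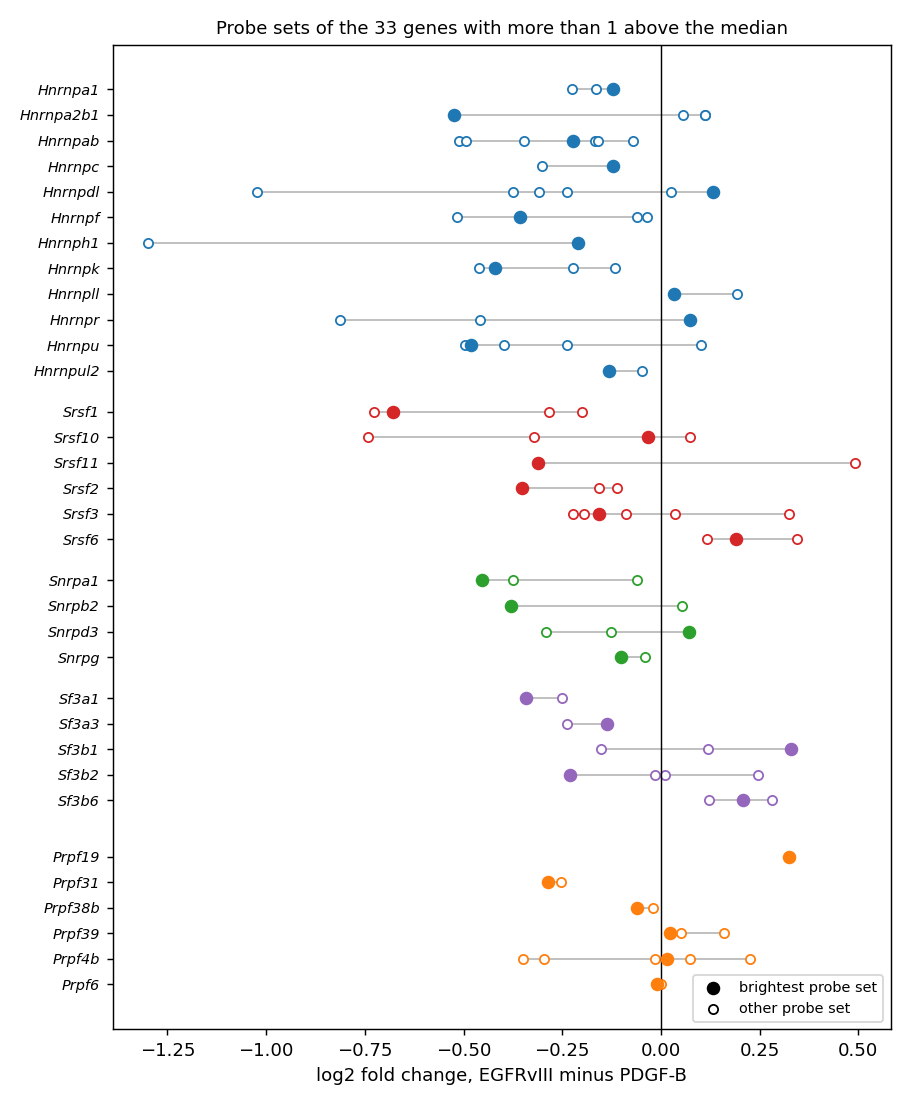
Log2 fold change of EGFRvIII minus PDGF-B (horizontal axis) for each probe set of the 33 members with more than 1 above the median; filled points are the brightest probe set and open points the others, joined by a grey line per gene. All 6 Srsf1 and all 7 Hnrnpab probe sets lie left of 0, while the lines of Hnrnpa2b1, Hnrnpr and Srsf11 cross it.

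Across 6 further lists of the splicing machinery 121 genes were tested and none passed. Of these 68 were negative, where 43.5% of all genes tested were, and the median log2 fold change was -0.05. In 33 of the 121 every EGFRvIII array lay below both PDGF-B arrays and in 9 above both, beside 14.9% and 22.5% of all genes tested. Members of the SR protein kinases and related regulators numbered 10, with 4 negative and a median of 0.13. Srpk3, an SR protein kinase, had 1.11 and Ppp1r8, a nuclear inhibitor of protein phosphatase 1, -0.75 (limma adjusted p = 0.162 and 0.174). Of 43 further spliceosome subunits and helicases, 19 were negative (median 0.00), and the groups did not overlap in 11 lower and 4 higher ones. Among them Rbmx2 had -0.64 and Dhx15, a helicase that helps take the spliceosome apart, -0.57 (limma adjusted p = 0.0627 and 0.0724).

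LSm proteins, relatives of the Sm proteins that bind U6 and act in mRNA decay, had 6 of 7 negative (median -0.25), with Lsm4 at -0.50 and Lsm7 at -0.32 (limma adjusted p = 0.14 and 0.153). The exon junction complex had 5 of 6 negative (median -0.24), with the mRNA export factor Alyref at -0.53 and Rnps1 at -0.35 (limma adjusted p = 0.0668 and 0.205). The SMN complex and its partners in snRNP assembly had 5 of 10 negative (median 0.02), with Ddx20 at -0.48 and Gemin7 at 0.28 (limma adjusted p = 0.136 and 0.203). Of 46 tissue-restricted and other splicing regulators 29 were negative (median -0.10), with Son, a nuclear speckle protein, at 0.46 and Ptbp1, the polypyrimidine tract binding protein hnRNP I, at -0.45 (limma adjusted p = 0.0945 and 0.108). The groups did not overlap in Son, where EGFRvIII cells had 11.92 to 12.19 and PDGF-B cells 11.65 and 11.59, nor in Ptbp1, where EGFRvIII cells had 9.51 to 9.79 and PDGF-B cells 10.06 and 10.17.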

How the data were processed

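RNA of sorted glioma cells was measured on Affymetrix mouse arrays, 1 per sample, after amplification of 30 ng of RNA, per the labels' protocols. Each deposited value is a probe set's intensity on the log2 scale. The authors used RMA and affy 3.4.2, per the submitters' processing notes; base 2 was inferred from the range of the values, 2.22 to 14.4. Both deposited tables held the same values to within 5e-09.

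Of 22690 probe sets, 64 controls were left out, 20380 had 1 gene symbol, 691 several and 1555 none. The brightest probe set stood for each of 12393 genes. The 6761 genes above the median non-control probe set of an array in at least 2 arrays were tested with limma 3.58.1 in R 4.3.3 (lmFit and eBayes, two-sided), 4 EGFRvIII against 2 PDGF-B arrays, without covariates. Residual degrees of freedom were 4 and prior ones 2.81. The fit was tested on simulated data.

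Members and lists were chosen with earlier results of these data known. Genes named are all called members, the 4 with the smallest p per family, the 4 largest changes each way, the 4 with the largest SD over EGFRvIII arrays, and up to 4 called members (or the 2 with the smallest p) of each further splicing list. Alternatives covered the other table, scaling, filters, the mean of probe sets, variance models, array weights, the replicate block, Xist as a covariate, each array left out and an adjusted p under 0.10. Figures were drawn with matplotlib 3.10.9.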

Additional observations from a re-analysis of the deposited data

Results flagged for a closer look

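Among 34 values examined over the 4 EGFRvIII arrays (27 named members and 7 family or set medians), 3 had a single array standing off from the rest. For values not chosen by their spread, chance alone does this in about 1 of 20. Some members were named for their large SD over these same arrays, and the medians share genes with the members. The count therefore cannot be set against that rate. EGFRvIII replicate 3 had Srsf4 at 9.67 while the other EGFRvIII arrays had 10.11 to 10.15. EGFRvIII replicate 2 had Prpf31 at 8.42 while the others had 8.14 to 8.18, and it had Srsf9 at 10.52 while the others had 10.68 to 10.71. The cause was not tested.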

How the results depend on the processing

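The members' median log2 fold change of -0.18 stayed negative in all 16 other settings, between -0.30 with arrays centred and -0.14 without EGFRvIII replicate 4; over the settings that left out 1 array it ran from -0.21 to -0.14. No member was called higher by limma in any setting that kept both PDGF-B arrays. The 1 member called lower became 0 without the filter on dim genes, with the replicate block and with Xist as a covariate. It also became 0 in each setting that left out 1 EGFRvIII array. There limma gave 9 to 13 members lower and 1 to 3 higher at an unadjusted p under 0.05, beside 1346 to 1644 of all genes in either direction. In the main setting 13 members were lower and 3 higher, beside 1689 of all genes. At an adjusted p under 0.10 the count of members called lower was 4. The count of all genes called, 151, was 77 without the filter, 265 with genes above the median in all 6 arrays, 254 with a trended robust variance, 3 with Xist as a covariate, 706 at an adjusted p under 0.10, and 0 to 187 with 1 array left out; the cause was not tested. It was 17 without EGFRvIII replicate 1, 21 without EGFRvIII replicate 4, 0 without PDGF-B replicate 1 (1114 at an unadjusted limma p under 0.05) and 7 without PDGF-B replicate 2. With the replicate block it was 9, and Srsf9 had a log2 fold change of -0.78 (limma adjusted p = 0.146), with 1 residual degree of freedom left. The labels give same-numbered arrays no link beyond the number. Correlations of their deviations were 0.20 and 0.25. With 2 PDGF-B arrays each such value recurs with the opposite sign for the other PDGF-B array, so the correlations cannot show whether numbers pair arrays. The block moved Hnrnpd to -0.60, Sf3a1 to -0.23 and Srsf4 to -0.21. EGFRvIII replicates 3 and 4 have no PDGF-B array of their number, so values with the block rest on replicates 1 and 2 of each group. Those 2 EGFRvIII arrays are the ones with low Xist (3.85 and 4.46).

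Of 432 values of the 27 named members under other settings 2 turned sign: Srsf11 when its probe sets were averaged (0.090), and U2af2 without PDGF-B replicate 1 (0.015; from -0.13 to 0.015 with 1 array left out). None beyond Srsf9 passed. Counts of members whose groups did not overlap were recomputed under settings chosen after seeing the data: 25 (quantile normalization, beside 18.4% of all genes tested) to 34 (arrays centred, beside 23.5%) were lower, and 3 (arrays centred, beside 14.2%) to 7 (without EGFRvIII replicate 2, beside 25.7%) higher.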
